A study of Mus musculus with 8 samples.

Results

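The genes of the blood-testis barrier junctions were followed through postnatal testis development by RNA-seq. They comprise 9 of the 23983 genes in the expression table and are listed by name for their place in the junctions. The set holds the claudins Cldn11, Cldn3 and Cldn5, the tight junction proteins Ocln, Tjp1 and F11r, the gap junction protein Gja1, and the adhesion molecules Cdh2 and Cadm1. RNA came from pieces of whole testis of C57BL/6J mice, with 1 library each at day 12 (d12), day 16 (d16) and day 24 (d24) after birth and 1 from adults, whose age the labels do not give. All 4 groups share this strain and tissue and carry no other allele or treatment in the labels. The labels do not say how many animals gave each library. ChIP-seq for H3K27Ac, 4 samples, is not analysed here. Levels are given in FPKM, fragments per kilobase of transcript on a per-library scale that the sources used here do not name, and an interval after a value is its exact 95% counting interval, which does not cover the spread between animals.

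The blood-testis barrier is formed by neighbouring Sertoli cells, the somatic nurse cells of the seminiferous tubule, near the base of the epithelium. Its tight junctions seal the space between the cells, and adherens, gap and desmosome-like junctions lie in the same contact zone. In mice the barrier forms in the weeks after birth, as the first germ cells advance through meiosis, and it later opens and closes around spermatocytes that move inward.

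With 1 library per stage no test between stages was possible. A change is therefore named only where 2 stages differed at least 2-fold on the log2(FPKM + 0.1) scale, and the same rule was applied to the 13901 genes whose mean over the libraries reached 1 FPKM, which include all 9 junction genes. The libraries held between 8909088 and 23685500 fragments on genes, as recovered from the FPKM values. The FPKM sum over all genes rose from 283580 at d12 to 659202 in the adult, so levels were also compared after rescaling. As a check of the tissue label, all 13 Sertoli cell genes examined were detected at d12, d16 and d24, and 12 of them in the adult, where Amh, a product of immature Sertoli cells, was listed at 0. Their summed level went from 1775 FPKM at d12 to 842.3 in the adult. The summed level of 6 spermatid genes was 14.6, 7.80, 2377 and 25816 FPKM in the order of age. In whole testis, fewer Sertoli cells, less RNA per Sertoli cell and a larger share of RNA from germ cells cannot be told apart.

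Promoter sequences were set beside the levels for a pair of claudins whose levels ran in opposite directions, Cldn11 and Cldn3, and for the pair of junction genes with the most similar course, Ocln and F11r. Each line holds the 250 bases before the annotated start of a RefSeq transcript on GRCm38.p6, written 5′ to 3′ on the strand of the gene, with letters that match a searched motif in capitals.
Cldn11, chr3:31149670-31149919, plus strand: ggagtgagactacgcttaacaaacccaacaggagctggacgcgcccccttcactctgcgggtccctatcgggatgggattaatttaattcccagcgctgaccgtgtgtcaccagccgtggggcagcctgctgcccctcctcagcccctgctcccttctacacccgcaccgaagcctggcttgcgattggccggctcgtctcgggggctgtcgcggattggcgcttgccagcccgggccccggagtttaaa
Cldn3, chr5:134985964-134986213, plus strand: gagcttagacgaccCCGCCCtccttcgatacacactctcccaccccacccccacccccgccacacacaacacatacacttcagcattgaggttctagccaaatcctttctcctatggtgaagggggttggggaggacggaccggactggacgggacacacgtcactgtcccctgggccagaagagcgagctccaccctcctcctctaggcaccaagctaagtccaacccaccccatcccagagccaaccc
Ocln, chr13:100552719-100552968, minus strand: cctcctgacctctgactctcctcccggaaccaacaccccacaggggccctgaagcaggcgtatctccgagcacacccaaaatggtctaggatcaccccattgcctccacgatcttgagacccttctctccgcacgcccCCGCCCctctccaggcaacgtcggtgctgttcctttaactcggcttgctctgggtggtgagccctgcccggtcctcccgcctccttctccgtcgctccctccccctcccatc
F11r, chr1:171437311-171437560, plus strand: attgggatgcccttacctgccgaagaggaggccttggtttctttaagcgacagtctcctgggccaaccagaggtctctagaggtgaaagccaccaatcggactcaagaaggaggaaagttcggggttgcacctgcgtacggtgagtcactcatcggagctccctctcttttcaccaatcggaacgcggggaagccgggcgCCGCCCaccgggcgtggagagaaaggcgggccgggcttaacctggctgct
The capitals in the Cldn3, Ocln and F11r lines are the letters GGGCGG read on either strand, the GC box bound by Sp1-type factors. The match begins 236 bases before the start in Cldn3, 112 in Ocln and 50 in F11r. The search covered windows from 250 bases before to 50 after the start, on both strands, in 8 windows of the 7 junction genes that matched the promoter table. GGGCGG was found in 7 of the 8 windows, from 6 of the 7 genes, against 35.7% of 32851 promoters of the same length. In Cldn11 the match lies after the start and outside the printed bases, and the Gja1 window held none. The letters TGACGTCA (cAMP response element), AACAAT (SOX) and CACGTG (E-box) were in none of the 8 windows, against 1.79%, 10.7% and 7.15% of all promoters. The letters AGATAA, known from sites of GATA factors, were found once, 135 bases before the start of Gja1, against 11.2% of all promoters. No match overlapped another. The 8 windows had a median of 62.3% G and C and 18 CG dinucleotides, against 52.7% and 7 over all promoters. The junction windows were richer in G and C at the median. The letters GGGCGG stood both before Cldn3, which rose, and before Ocln and F11r, which fell.

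Cldn11 encodes the claudin that makes up most of the Sertoli cell tight junction strand, and mice without it are infertile. The gene lies at chr3:31149920-31164326 on the plus strand, with 3 exons. It measured 95.4 FPKM at d12 (91.5 to 99.4) and 71.2 FPKM at d16 (67.9 to 74.8), then 42.0 FPKM at d24 (40.1 to 44.1) and 28.0 FPKM in the adult (25.5 to 30.6). The level was lower at each later stage and no counting intervals overlapped. Over the whole course it fell 3.41-fold (3.08 to 3.78), in steps of 1.34-fold, 1.69-fold and 1.503-fold. None of these steps reached 2-fold alone as deposited. After rescaling, the d16 to d24 log2 change of −0.76 became −1.38 with the same FPKM sum and −1.29 with the same upper quartile. The d24 to adult log2 change of −0.59 became −1.06 and −0.84 under these scalings.

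Cldn3 encodes a second claudin of the barrier, found at newly formed junctions and known to depend on androgen. It is a single-exon gene at chr5:134986214-134987476, on the plus strand. It measured 0.126 FPKM at d12 (0.0153 to 0.457) and 0.317 FPKM at d16 (0.103 to 0.739), then 1.77 FPKM at d24 (1.31 to 2.34) and 4.35 FPKM in the adult (3.22 to 5.75). These levels rest on 2, 5, 49 and 49 fragments. The intervals of d12 and d16 overlapped, and those of d24 and the adult lay above both and apart from each other. Cldn3 rose 5.58-fold from d16 to d24 (2.23 to 17.9) and 2.46-fold from d24 to the adult (1.62 to 3.74). Between d12 and the adult the ratio was 34.4 (9.03 to 292.1), an interval made wide by the 2 fragments at d12. On the log2 scale this change was 4.30, and it stayed past 2-fold at 3.33 with libraries rescaled to the same FPKM sum and at 3.57 with the same upper quartile. The d24 to adult change of 1.25 did not stay past 2-fold, at 0.78 and 0.999 under these scalings and 0.95 with a pseudocount of 1, and its counting interval also reaches below 2-fold.

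The last 44 bases of Cldn3, chr5:134987433-134987476, overlap the 3′ end of Wbscr25, a long non-coding RNA on the minus strand that rose over the same stages. Wbscr25 stood at 0.346, 0.540, 36.0 and 413.6 FPKM in the order of age. Cldn3 amounted to 36.5%, 58.7%, 4.91% and 1.05% of the Wbscr25 level, so the genes did not keep a fixed ratio. The libraries were strand-specific, and the part of reads from Wbscr25 in the Cldn3 level was not tested. Genes of other cells that can express claudins moved as well. Of 7 duct epithelium genes, Krt8, a keratin of simple epithelia, stood at 0.0442, 0.532, 2.50 and 3.48 FPKM from d12 to the adult, and Epcam at 32.4, 25.8, 33.3 and 58.2. The others did not follow Krt8. Krt19 went from 0.349 to 0.0816 FPKM, Pax8 from 1.27 to 0.175 and Cdh1 from 0.489 to 0.229 between d12 and the adult, and Krt18 stood at 0.627 and 0.641. Pax2, listed at 0 at d16, stood at 0.0528 and 0.222. The sum of the 7 ranged from 28.4 FPKM at d16 to 63.0 in the adult, most of it Epcam. Of 6 Leydig cell genes, 3 were at least 2-fold higher in the adult than at d12, against 35.7% of all genes tested. The part of duct, Leydig and spermatid cells in the rise of Cldn3 was not tested.

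Cldn5, a claudin of vessel walls that Sertoli cells also make, is a single-exon gene at chr16:18776847-18778262 on the plus strand. It measured 2.82 FPKM at d12 (2.09 to 3.72) and 2.71 FPKM at d16 (2.00 to 3.60), then 1.61 FPKM at d24 (1.19 to 2.12) and 2.38 FPKM in the adult (1.60 to 3.39). Neighbouring stages overlapped in every case, with 30 to 50 fragments a library. The adult level was 0.843 of the d12 level (0.517 to 1.35), so no difference was detectable in the values as deposited. After rescaling the log2 change became −1.41 with the same FPKM sum and −1.13 with the same upper quartile. From d16 to d24 Cldn5 was 1.69-fold lower (1.11 to 2.56), below 2-fold as deposited but with a counting interval that reaches past it. This log2 change became −1.32 with the same FPKM sum and −1.23 with the same upper quartile, past 2-fold in both. From d16 to d24 Cldn5 changed by −0.72 and the 8 endothelial cell genes by a median of −0.60 on the log2 scale. From d24 to the adult these changes were 0.54 and 0.55. From d12 to d16 they were −0.05 and −0.66. Over the whole course, d12 to the adult, they were −0.24 and −0.58. In the step from d16 to d24 the median of the 13 Sertoli cell genes, −0.56, also lay near Cldn5. The 8 endothelial genes ranged from −1.39 to 0.39 from d16 to d24 and from −0.35 to 1.05 from d24 to the adult. The 5 of them with a mean of at least 1 FPKM had medians of −0.90 and 0.49 in these steps. Their median from d12 to the adult was −1.33. The summed level of the endothelial list was 24.4, 16.3, 9.10 and 12.2 FPKM, and its part in Cldn5 was not tested.

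**Figure D1:**
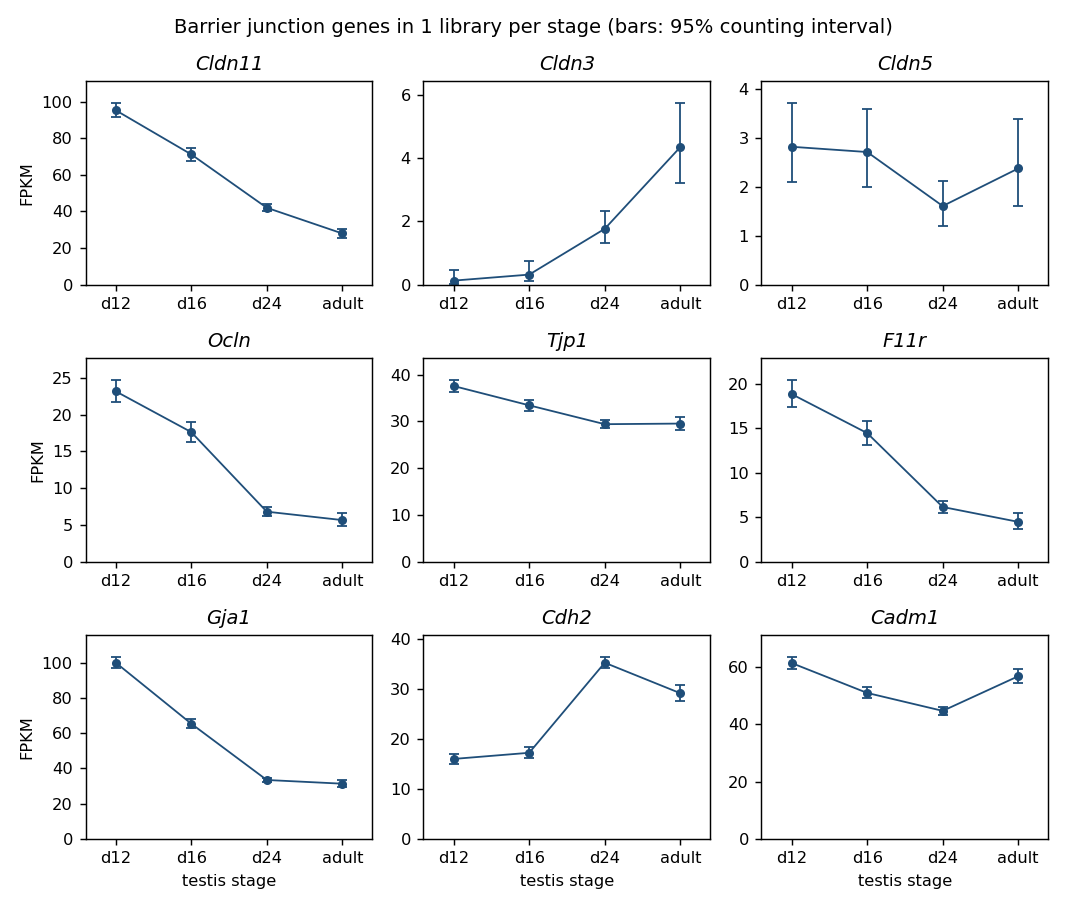
FPKM (y axis, linear from 0) of each junction gene in the 1 library of each testis stage (x axis), with bars for the exact 95% counting interval. Cldn11, Ocln, F11r and Gja1 are lowest in the adult, Cldn3 rises from 0.126 to 4.35 FPKM, and Cdh2 is highest at d24 with 35.3 FPKM.

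The balance of the claudins shifted with age. The level of Cldn11 was 754.3 times that of Cldn3 at d12 (208.6 to 6232) and 224.9 times at d16 (96.2 to 693.7), then 23.8 times at d24 (17.9 to 32.3) and 6.43 times in the adult (4.78 to 8.82). This ratio does not depend on the scaling of the libraries. Cldn11 made up 97.0% of the summed FPKM of the 3 claudins at d12 and 80.6% in the adult, and Cldn3 went from 0.129% to 12.5% of it. Cldn11 thus remained the claudin with the highest level at every stage.

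Ocln encodes occludin, the first membrane protein of tight junctions to be identified. It lies at chr13:100496504-100552718 on the minus strand and has 5 curated transcripts of 3192 to 4098 bases. It measured 23.2 FPKM at d12 (21.7 to 24.7) and 17.6 FPKM at d16 (16.34 to 18.97), then 6.80 FPKM at d24 (6.21 to 7.44) and 5.66 FPKM in the adult (4.82 to 6.60). The drop lay mostly between d16 and d24, where it was 2.59-fold (2.30 to 2.92), and the intervals of d24 and the adult overlapped. From d12 to the adult Ocln fell 4.10-fold (3.46 to 4.87).

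F11r encodes JAM-A, an immunoglobulin-type adhesion protein of tight junctions that sperm and endothelium also carry. It lies at chr1:171437561-171464593 on the plus strand, with 10 exons. It measured 18.8 FPKM at d12 (17.3 to 20.4) and 14.4 FPKM at d16 (13.1 to 15.8), then 6.14 FPKM at d24 (5.50 to 6.84) and 4.47 FPKM in the adult (3.64 to 5.45). All 4 intervals were apart. F11r fell 2.35-fold from d16 to d24 (2.04 to 2.72) and 4.21-fold from d12 to the adult (3.395 to 5.26). Its centred log2 course and that of Ocln differed by a root mean square of 0.0716, the smallest value among the 36 pairs of junction genes.

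Tjp1 encodes ZO-1, the scaffold that ties claudins, occludin and JAM-A to actin. It lies at chr7:65296165-65527850 on the minus strand. It measured 37.5 FPKM at d12 (36.3 to 38.8) and 33.4 FPKM at d16 (32.2 to 34.7), then 29.4 FPKM at d24 (28.5 to 30.3) and 29.5 FPKM in the adult (28.2 to 30.9). The values of d24 and the adult overlapped, and no step reached 2-fold. The adult level was 0.786 of the d12 level (0.742 to 0.833). This log2 change of −0.35 became −1.56 with the same FPKM sum and −1.27 with the same upper quartile, past 2-fold in both. The scaffold thus moved less than the membrane proteins Cldn11, Ocln and F11r that it binds.

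Gja1 encodes connexin 43, the gap junction subunit that couples Sertoli cells to each other and to germ cells. It lies at chr10:56377300-56390419 on the plus strand, with 2 exons. It measured 100.1 FPKM at d12 (97.0 to 103.3) and 65.4 FPKM at d16 (62.9 to 68.0), then 33.4 FPKM at d24 (32.1 to 34.8) and 31.3 FPKM in the adult (29.3 to 33.5). With rank 409 of 23983 genes it had the highest level of the 9 junction genes at d12, just above Cldn11 at rank 434, whose interval overlapped with it. The intervals of d24 and the adult overlapped. Gja1 fell 3.20-fold from d12 to the adult (2.97 to 3.44), with 1.53-fold in the first step and 1.96-fold in the second. After rescaling, the log2 change of −0.97 in the second step became −1.58 with the same FPKM sum and −1.495 with the same upper quartile, past 2-fold in both. The level of Gja1 relative to Gjc1, the connexin 45 gene, was 3.50, 2.63, 1.75 and 1.96 in the order of age.

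Cdh2 encodes N-cadherin, the main classical cadherin of adherens contacts between Sertoli cells and between Sertoli and germ cells. It lies at chr18:16588877-16809246 on the minus strand, with 16 exons. It measured 16.02 FPKM at d12 (15.0 to 17.1) and 17.3 FPKM at d16 (16.2 to 18.3), then 35.3 FPKM at d24 (34.2 to 36.5) and 29.2 FPKM in the adult (27.6 to 30.9). The intervals of d12 and d16 overlapped, and d24 and the adult lay above them. Cdh2 rose 2.05-fold from d16 to d24 (1.911 to 2.195), with a counting interval that reaches below 2-fold. The adult level was 1.82 times the d12 level (1.68 to 1.99). After rescaling, the d16 to d24 log2 change of 1.03 became 0.41 with the same FPKM sum and 0.50 with the same upper quartile. The d12 to adult change of 0.86 turned to −0.35 and −0.06 under these scalings. The stage with the highest Cdh2 level was d24 under all 3 scalings. Cdh1, the gene of E-cadherin, stayed between 0.229 and 0.634 FPKM.

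Cadm1 encodes a nectin-like adhesion molecule that spermatogenic cells use to hold on to Sertoli cells, though the source of its RNA was not tested. It lies at chr9:47530170-47862280 on the plus strand, with 5 curated transcripts. It measured 61.5 FPKM at d12 (59.4 to 63.6) and 51.0 FPKM at d16 (49.1 to 52.9), then 44.7 FPKM at d24 (43.4 to 46.1) and 56.8 FPKM in the adult (54.5 to 59.3). The course dipped at d24. No intervals overlapped, although those of d12 and the adult lay next to each other at 59.4 and 59.3 FPKM. No step reached 2-fold. The d12 to adult log2 change of −0.11 became −1.33 with the same FPKM sum and −1.04 with the same upper quartile, and the d24 to adult log2 change of 0.35 became −0.13 with the same FPKM sum and 0.09 with the same upper quartile. Gm10677, a long non-coding RNA inside the gene on the other strand, stood between 0.758 and 1.26 FPKM.

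Counted over the 9 genes, 0 were at least 2-fold lower and 0 at least 2-fold higher from d12 to d16, against 3.67% lower and 12.6% higher among the 13901 genes tested. From d16 to d24, 2 were lower (Ocln and F11r) and 2 higher (Cldn3 and Cdh2), against 8.45% and 27.5%. From d24 to the adult, 0 were lower and 1 was higher (Cldn3), against 2.2% and 11.4%. From d12 to the adult, 4 were lower (Cldn11, Ocln, F11r and Gja1) and 1 higher (Cldn3), against 23.1% and 35.7%. The median log2 change of the 9 genes was −0.27, −0.72, −0.09 and −0.35 in these comparisons, beside 0.00, 0.13, −0.02 and 0.20 over all genes tested. The summed level of the 9 genes was 355.4, 273.4, 201.2 and 191.7 FPKM in the order of age. Their share of all FPKM went from 0.125% at d12 to 0.0291% in the adult. Rescaling shifted all genes together. From d12 to the adult 7 of the 9 were then lower under either scaling, against 49.9% of all genes with the same FPKM sum and 43.8% with the same upper quartile, and 1 was higher, against 23.2% and 25.5%. The median of the 9 became −1.56 and −1.27, beside −0.996 and −0.72 over all genes.

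**Figure D2:**
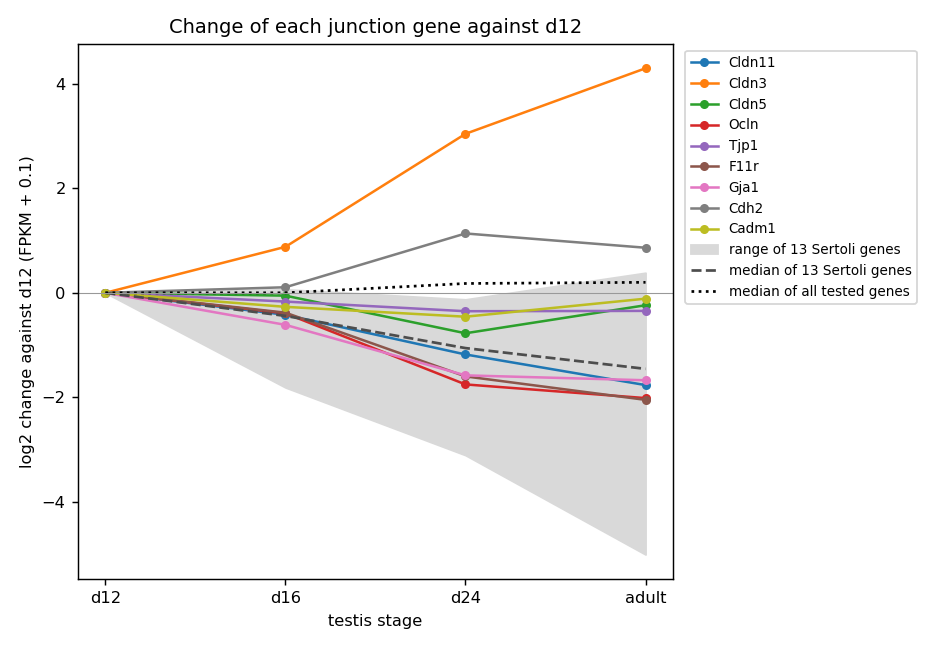
Log2 change against d12 (y axis, on FPKM + 0.1) of the 9 junction genes at each stage (x axis), with the range and median of 13 Sertoli cell genes in grey and the median of all 13901 genes tested as a dotted line. Ocln, F11r, Cldn11 and Gja1 lie near or below the Sertoli median of −1.46 in the adult, while Cldn3 at 4.30 and Cdh2 at 0.86 lie above the Sertoli range, a position that does not depend on the scaling.

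Since Sertoli cells build the barrier, each junction gene was set beside 13 genes known from Sertoli cells, such as Sox9, Wt1, Dhh, Cst9 and Aard. From d12 to the adult the median of that list was −1.46 on the log2 scale. Of the 13 genes, 8 were at least 2-fold lower and 0 higher, against 23.1% and 35.7% of all genes tested. The junction genes that fell lay below this median by 0.22 (Gja1), 0.31 (Cldn11), 0.56 (Ocln) and 0.59 (F11r) on the log2 scale, all within the range of the 13 genes. Tjp1 lay above it by 1.11, Cldn5 by 1.22 and Cadm1 by 1.34, also within the range. Cdh2 lay above it by 2.32 and Cldn3 by 5.75, higher than each of the 13 genes. From d16 to d24 Ocln, at −1.36, lay below each of the 13 genes, and F11r, at −1.22, below 12 of them. These differences within a library do not change with a common scaling.

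As a ratio to the geometric mean of the 13 genes (FPKM + 0.1), Cldn11 stayed between 2.31 and 2.85 and Gja1 between 2.05 and 2.85 across the 4 stages. Ocln went from 0.662 and 0.708 to 0.421 and 0.474. F11r went from 0.538 and 0.581 to 0.381 and 0.377. Cdh2 went from 0.458 and 0.693 to 2.16 and 2.42. Tjp1 rose from 1.07 to 2.44 and Cadm1 from 1.75 to 4.69, so both ended more than 2-fold higher relative to the list. Their own levels stayed within 2-fold as deposited and were more than 2-fold lower after either rescaling. Cldn3 went from 0.00644 at d12 to 0.367 in the adult. Relative to these Sertoli cell genes, Ocln, F11r and Gja1 all stepped down from d16 to d24. Gja1 went from 2.62 to 2.05 and stood at 2.59 again in the adult. Cldn11 and Cldn5 also went down in that step, from 2.85 to 2.57 and from 0.112 to 0.104. Over the whole course Cldn5 went up, from 0.0830 at d12 to 0.204 in the adult. It thus also ended more than 2-fold higher relative to the list, on 50 and 30 fragments.

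**Figure D3:**
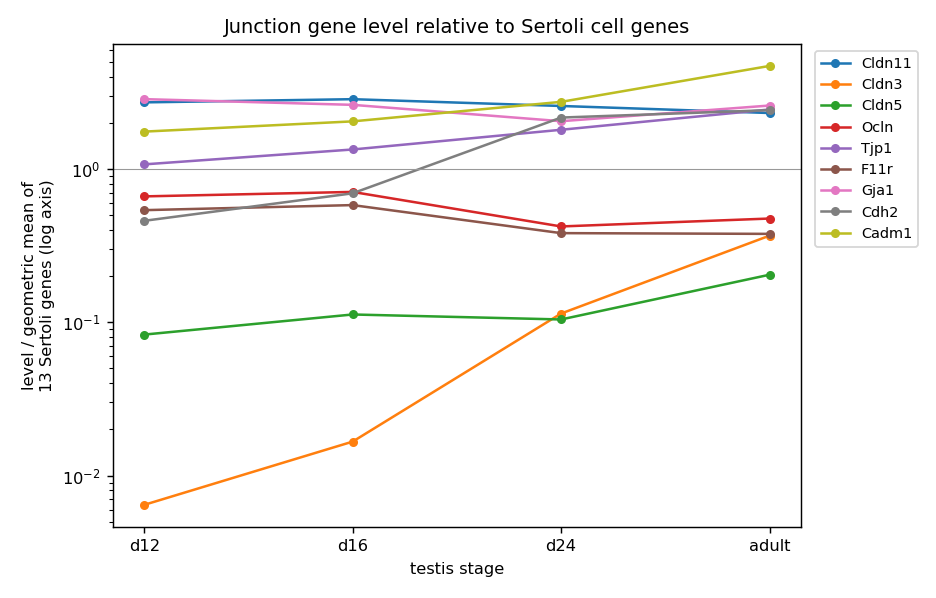
Level of each junction gene divided by the geometric mean of 13 Sertoli cell genes (y axis, log scale, FPKM + 0.1) at each stage (x axis). Gja1, Ocln and F11r step down from d16 to d24, and Gja1 stands at 2.59 again in the adult. Cldn11 lies between 2.31 and 2.85. Cdh2 and Cldn3 climb, and Tjp1, Cadm1 and Cldn5 are also higher in the adult than at d12.

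Other genes of the same junctions were counted from lists made for their known place. Of 15 further tight junction membrane proteins and scaffolds past this mean level, 8 were at least 2-fold lower and 0 higher from d12 to the adult, with a median log2 change of −1.14, against 23.1% lower and 35.7% higher among all genes tested. With the same FPKM sum 14 of the 15 were lower, against 49.9% of all genes, and with the same upper quartile 12, against 43.8%. Cgn, the scaffold protein cingulin, went from 58.0 to 39.6, 22.9 and 19.4 FPKM. Cxadr, a JAM-related adhesion protein, dropped by the largest factor of the list, from 10.8 to 4.30, 1.44 and 0.604 FPKM, which is 17.9-fold. Marveld2, the tricellulin gene, went from 2.17 to 0.482 FPKM. Jam3, which germ cells also carry, went from 33.1 to 19.7 FPKM, within 2-fold. Mpp5, a polarity scaffold, was the 1 gene of the 15 above 0, at 26.9 FPKM at d12 and 39.7 in the adult. Its log2 change of 0.56 turned to −0.65 with the same FPKM sum and −0.37 with the same upper quartile.

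The other claudins lay mostly below 1 FPKM. Of 20 further claudins in the table, 3 reached a mean of 1 FPKM, against 13901 of all 23983 genes. Cldn1 went from 2.64 FPKM at d12 to 0.987, 0.1404 and 0.311, and Cldn20 from 3.75 to 1.53. Both were at least 2-fold lower in the adult and 0 of the 3 higher, against 23.1% and 35.7% of all genes tested. Cldn12 stood at 6.38 at d12 and 4.02 in the adult. After rescaling all 3 were lower, against 49.9% of all genes with the same FPKM sum and 43.8% with the same upper quartile. Among 19 further connexins, 2 passed the same limit, Gjc1 and Gja6. Gjc1 stood at 28.6 and 16.015 FPKM and Gja6 at 4.39 and 4.17 FPKM at d12 and in the adult. Neither was 2-fold apart as deposited. With the same FPKM sum both were at least 2-fold lower, and with the same upper quartile 1 of the 2, beside the same 49.9% and 43.8%.

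In the adherens junction and ectoplasmic specialization, the actin-rich contact of Sertoli cells, 7 of 17 genes were at least 2-fold lower and 3 higher from d12 to the adult, with a median of −0.91, beside the same 23.1% and 35.7%. With the same FPKM sum 13 were lower and 1 higher, against 49.9% and 23.2% of all genes. With the same upper quartile 11 were lower and 2 higher, against 43.8% and 25.5%. The cadherin partner Ctnnb1 (β-catenin) went from 153.4 to 57.0 FPKM and Itgb1 (integrin β1) from 90.2 to 25.2. Itga6, an integrin that spermatogonia carry as well, went from 19.7 to 3.18 FPKM, and Lamc3, a laminin chain, from 18.2 to 2.95. The 3 genes that rose were Pvrl3, Plec and Jup. Pvrl3 encodes nectin-3, the spermatid-side partner of the Sertoli protein nectin-2, and went from 11.8 to 31.8, 128.7 and 193.9 FPKM. Pvrl2, the gene of nectin-2, stood at 28.7 at d12 and 25.0 in the adult. Plec, a linker of intermediate filaments, went from 11.5 to 49.1 FPKM. Jup (plakoglobin) went from 2.61 to 7.93. Pvrl2 and Jup were chosen after their values were seen. With the same FPKM sum the log2 changes stayed above 0 at 2.81 for Pvrl3, 0.87 for Plec and 0.37 for Jup, of which Pvrl3 alone was past 2-fold. With the same upper quartile they were 3.10, 1.16 and 0.65.

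Cadm1 relatives and partners also diverged. Of 3 that reached a mean of 1 FPKM, Cadm4 fell from 2.33 to 0.156 FPKM, Pvr stood at 4.51 and 2.83, and Crtam, a known binding partner of Cadm1, rose from 0.247 to 3.72, 20.9 and 17.4 FPKM. Of 2 desmosome genes past the limit among 8, Pkp2 went from 2.68 to 0.931 FPKM and Pkp4 stood at 8.74 and 7.76. Of 10 genes of hormone and cytokine signals known to act on the barrier, 6 were at least 2-fold lower and 2 higher from d12 to the adult. The shares among all genes tested were 23.1% and 35.7%. After either rescaling 7 of the 10 were lower and 0 higher. The shares among all genes then became 49.9% and 23.2% with the same FPKM sum and 43.8% and 25.5% with the same upper quartile. Tgfb3, a cytokine that opens the barrier, went from 11.8 to 2.88 FPKM, Tgfb2 from 3.38 to 0.403, and Fshr, the receptor for follicle-stimulating hormone and also 1 of the 13 Sertoli genes, from 4.36 to 1.19. The higher ones were Mtor, at 18.0 and 40.7 FPKM, and Il1a, at 0.243 at d12, 2.24 at d24 and 0.909 in the adult. The log2 change of Mtor, 1.17, became −0.039 with the same FPKM sum and 0.25 with the same upper quartile.

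**Figure D4:**
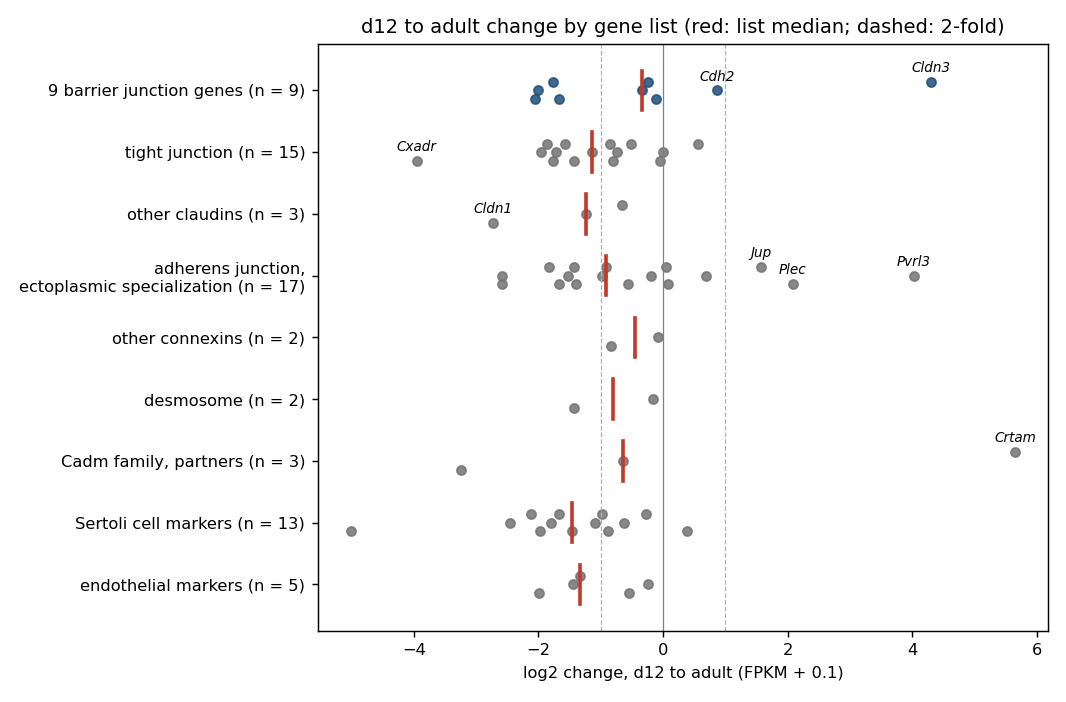
Log2 change from d12 to the adult (x axis, FPKM + 0.1) of the 9 junction genes (blue) and of genes in other junction and marker lists (grey), 1 point per gene whose mean reached 1 FPKM, red bars at the list medians and dashed lines at 2-fold. All lists shown have medians below 0, and Cldn3, Pvrl3, Crtam, Plec and Jup stand at more than 2-fold higher. With the same FPKM sum Plec and Jup fall within 2-fold, at 0.87 and 0.37.

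For each junction gene, the genes with the most similar course over the 4 libraries were found among the 13901 genes, by the root mean square difference of centred log2 values. Among these were Shmt2 (0.0203) for Cldn11, Traf6 (0.0092) and Etnk2 (0.0246) for Gja1, and Sgtb (0.00678) and Ptp4a2 (0.00835) for Tjp1. For Ocln they were Cycs (0.0264) and Lrrc75b (0.0312), and for F11r Cped1 (0.0126) and Mcam (0.0228), an adhesion molecule of vessels and smooth muscle. Mcam went from 29.0 to 21.9, 9.77 and 6.98 FPKM, beside 18.8, 14.4, 6.14 and 4.47 for F11r. For Cdh2 they were Fam98b (0.0259) and Mettl4 (0.0275), for Cadm1 Stk38l (0.0186) and Xrn2 (0.0248), and for Cldn5 Gpc2 (0.0253) and Usmg5 (0.0398). For Cldn3 they were Ppp1r2-ps3 (0.0951), named as a pseudogene and so open to shared reads, and Slc35g3 (0.0963). Slc35g3 stood at 1.28, 2.35, 11.7 and 23.4 FPKM. With 4 libraries many genes share a course, and the closest neighbours of Cldn3 lay farther from it than those of the other 8 genes.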

How the data were processed

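RNA-seq of 4 whole-testis samples was analysed, 1 per stage, grouped by their labels. Libraries were strand-specific (ScriptSeq v2) and sequenced in pairs. The deposited table holds FPKM values, calculated by the authors for 23983 genes. Read pairs had been aligned by the authors (TopHat2 2.1.0, bowtie 1.1.2) to the GRCm38 (mm10) build under RefSeq annotation, with a single alignment kept, and passed to Cuffdiff (Cufflinks 2.2.1). Its options corrected for multiply mapped reads and sequence bias and switched off the effective length step. The scaling between libraries is not given in the sources used here, and it bears on every level.

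From these values, log2 changes with a pseudocount of 0.1 FPKM were computed (python 3.11.15, numpy 2.4.6, pandas 2.3.3, scipy 1.17.1). Genes counted as tested reached a mean of 1 FPKM, and a change is at least 2-fold. No test was run, because each stage has 1 library. Fragments were recovered from FPKM by finding what 1 fragment is worth in each library, using RefSeq transcript lengths. Over 14604 genes with 1 transcript, 91.7% to 92.4% of values up to 20 fragments lay within 0.05 of a whole number. In the order of age, 1 fragment on 1 kb was worth 0.0799, 0.0800, 0.0455 and 0.112 FPKM. For Ocln the shortest and for Tjp1 and Cadm1 the mean transcript length was used. Intervals are exact 95% Poisson intervals for levels and Clopper-Pearson intervals for ratios, and cover counting error only. A search with blastn 2.17.0 for transcripts of other genes that match 80% or more of a junction transcript at 95% identity or more found none. Positions and promoters came from RefSeq on GRCm38.p6. The recovery of fragments and the 2-fold calls were tested on simulated data.

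Genes were named as follows: the 9 junction genes, up to 4 per list with the highest mean and up to 4 with the largest d12 to adult change, and the 2 genes closest in course to each junction gene. Some genes these rules select are not reported here. The 7 junction lists, the 9 cell type lists and the 9 genes were chosen with earlier results of these data known. Alternatives were pseudocounts of 1 and 0.01, rescaling by FPKM sum or upper quartile, a 1.5-fold limit, intervals past 2-fold, other filters and a shorter Sertoli list.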

Additional observations from a re-analysis of the deposited data

How the results depend on the processing

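Of 353 values recomputed under 9 alternatives, 226 stayed the same, that is within 1.5 times for a count. A change stayed the same within its counting interval or, where none was computed, within 1.5-fold. No change of at least 2-fold in a junction gene turned its direction. Mtor, in another list, turned to −0.039 with the same sum. Cdh2, within 2-fold from d12 to the adult at a log2 change of 0.86, turned to −0.35 with the same FPKM sum and −0.06 with the same upper quartile. The number of junction genes at least 2-fold lower became 5 from d16 to d24 with the same FPKM sum, the same upper quartile or a 1.5-fold limit. It became 7 from d12 to the adult with either rescaling. It became 1 from d24 to the adult with the same sum or a 1.5-fold limit, and 1 from d12 to d16 with a 1.5-fold limit. Among all genes tested, 30.2% were lower from d16 to d24 with the same sum and 26.5% with the same upper quartile. From d12 to the adult these shares were 49.9% and 43.8%, and from d24 to the adult 10.0% with the same sum. The number of junction genes higher became 1 from d16 to d24, and 0 from d24 to the adult. Both held with a pseudocount of 1, with either rescaling and with intervals past 2-fold. The number higher became 1 from d12 to d16 with a pseudocount of 0.01 or a 1.5-fold limit and 2 from d12 to the adult with a 1.5-fold limit. Of all genes tested, 19.4% were higher from d16 to d24 with the same sum and 20.3% with the same upper quartile. From d24 to the adult these shares were 6.63% and 8.5%. The median of the 9 genes became −1.32 from d16 to d24 with the same sum, and −1.56 and −1.27 from d12 to the adult with the same sum and the same upper quartile.

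Over all genes, the number lower from d12 to d16 became 131 with a pseudocount of 1, 803 with the same sum, 833 with the same upper quartile, 1864 with a 1.5-fold limit, 1411 with no filter and 177 with a mean of at least 5 FPKM. From d16 to d24 it became 568, 4203, 3681, 3118, 1931 and 549 in the same order, and from d24 to the adult 58, 1390, 594, 1212, 926 and 76. From d12 to the adult it became 6934 with the same sum, 6089 with the same upper quartile and 1642 with a mean of at least 5 FPKM. The number higher became 2821 from d12 to d16 with a 1.5-fold limit. From d24 to the adult it became 921 with the same sum, 2596 with a 1.5-fold limit and 2672 with no filter, and from d12 to the adult 3220 with the same sum. The same-sum and upper-quartile scalings lower each adult level by construction, since the adult sum and quartile are higher.

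The stage with the highest level stayed the same for each of the 9 genes under both rescalings. Without Amh, Inha and Rhox5 the median difference from the Sertoli list, and the d12 to adult difference of each of the 9 genes, moved by less than 1.5-fold. The ratios to the list's geometric mean then ran from 2.095 to 1.58 for Cldn11, 2.198 to 1.77 for Gja1, 0.510 to 0.324 for Ocln and 0.415 to 0.257 for F11r. The values for single genes against the shorter list, and for the other junction lists under rescaling, were chosen after seeing the data. No paired analysis was possible because each stage has 1 library, so that none was left out in turn. Depth limits Cldn3 at d12 and d16 most, with 2 and 5 fragments.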

Other observations

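Other cell type lists, given as values only, moved as follows from d12 to the adult. Among all genes tested, 23.1% were at least 2-fold lower and 35.7% higher. Of 6 spermatogonium genes, 5 were at least 2-fold lower, among them Dmrt1 from 77.4 to 14.8 FPKM and Sohlh1 from 10.4 to 0.610. Of 6 spermatocyte genes 4 were higher, among them Hspa2 from 39.9 to 981.2 FPKM. Of 6 macrophage genes 0 were 2-fold lower and 0 higher, with Lyz2 at 19.9 and 22.2 FPKM. Of 6 genes of peritubular myoid cells, the contractile cells around the tubule, 4 were lower and 1 was higher. Acta2 went from 112.9 to 34.2 FPKM and Myh11 from 85.2 to 27.6, while Actg2 went from 9.47 to 5.78, 46.5 and 225.0.

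At low levels, beneath the mean of 1 FPKM, Cldn13 was listed at 0 at d12 and d16 and stood at 0.213 FPKM at d24 and 1.57 in the adult. Cadm2 stood at 0.0251, 0.125, 1.26 and 1.29 FPKM. Both were chosen after their values were seen.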
